A study of Gallus gallus with 65 samples.

Results

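Homeobox genes outside the HOX clusters were represented on the array by 76 probes of 1507 gene probes, 1 probe per gene. They were taken by symbol, from PAX, POU, SIX2 to SIX6, LHX, LMX, ISL, DLX, MSX, NKX, IRX, MEIS, PBX, PKNOX, EMX, GBX, EN, TGIF, CDX, BARX, BARHL, HESX, VAX, VSX, OTX and related families, and 1 further probe carries the name 11-Oct, a POU gene symbol altered in the file. The choice is by name only, and whether each member carries a complete homeobox was not checked. POU2AF1, for example, is a partner of POU proteins and has no homeobox itself. Of the 76 symbols, 62 were found among chicken RefSeq genes of the assembly GRCg7b.

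Homeobox genes encode transcription factors that bind DNA through the homeodomain, a small helical domain. In the inner ear, PAX2, PAX8 and SIX4 act from the placode onwards, POU4F3 is needed for hair cells to survive, POU4F1 and ISL1 mark the ganglion neurons, and LMX1, GBX2, DLX and EMX2 genes pattern the otocyst and the sensory patches. TALE proteins (MEIS, PBX, PKNOX, TGIF and IRX) carry an extended homeodomain, and MEIS and PBX bind DNA together with other homeodomain proteins.

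RNA came from the sensory epithelium of the utricle, a balance organ, of post-hatch White Leghorn chicks. Whole utricles were cultured with neomycin, an antibiotic that kills hair cells, or without it, and the epithelia were separated from the stroma after 0, 24 or 48 hr of recovery. Each array compared neomycin-treated with time-matched control RNA, amplified and coupled to Cy3 or Cy5. The 65 arrays (25, 21 and 19 at the 3 time points) came from 9 biological replicates, 3 per time point, with 4 to 11 arrays each. A replicate is a pool of epithelia, which holds supporting cells and any surviving hair cells together, so fewer cells of a type and less RNA per cell cannot be told apart in its ratios.

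The probes were designed on human genes and read chick RNA across species. Signals were low, and the median gene spot exceeded its background by a factor of 2.03 (Cy3) or 1.84 (Cy5). The direction of a ratio is the one that the image names in the file headers give, with neomycin in Cy3 on 34 arrays and in Cy5 on 31. After both were turned to neomycin over control, arrays of the same replicate but opposite dyes correlated at a median r of -0.06 across genes, against 0.22 for the same dyes. Swapping the dyes did not turn the ratios over, so the 2 orientations shared no profile across genes. The data thus do not settle the sign of the ratios given here, which rests on the image names. A ratio on which the orientations disagree shrinks in their average, so the sizes and the lack of calls are limited as well. On 3 arrays (2 of 0 hr replicate 3 and 1 of 48 hr replicate 3) the brightness pattern correlated under 0.5 with that of the other arrays. Without these arrays, likewise, no member was called in any ratio or brightness comparison.

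The dimmest 15% of gene probes were not tested, and 15 members were among them, including PAX3, PAX4, PAX7, PAX9, POU2F2, POU3F4, POU4F3, LHX1, LHX4, LHX9, PBX2, BARX2, NKX2B and CDX4. Tests therefore covered 61 members of 1281 probes. Around the filter's limit, PAX3 (484.3) and PAX9 (479.0) were the brightest members left out, and PAX8 (523.8) and POU1F1 (527.7) the dimmest kept, in foreground brightness. Of the hair cell markers on the array, POU4F3 and GFI1 were thus too dim to test, while BARHL1 and ATOH1 were tested. Their summed corrected signal ranged from 1527 to 2268 over the replicates at 0 hr, from 652.3 to 2218 at 24 hr and from 1292 to 2394 at 48 hr. None of these 4 markers was detected at any time point, and among 7 supporting cell and prosensory markers 1 was, at 48 hr. No stroma, muscle, blood or glia marker was detected. The highest replicate sums at 0, 24 and 48 hr were 7943, 12328 and 4878 for stroma and 24539, 36849 and 13008 for muscle. They were 6760, 6730 and 11952 for supporting cells, 5553, 5283 and 4695 for blood, and 1724, 1452 and 1404 for glia and melanocytes. The sums were not scaled between arrays and the sets differ in size, so they do not measure cell shares.

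No member was called at an adjusted p under 0.05 in limma at 0, 24 or 48 hr, in the mean over the time points, or in any difference between time points. Over all probes the called share was 0% in each of these comparisons except the mean, where 5 probes (0.39%) were called. At an unadjusted p under 0.05, 3 of 61 members passed at 0 hr (4.92%, against 6.4% of all probes), 2 at 24 hr (3.28% against 5.93%), 4 at 48 hr (6.56% against 7.42%) and 3 in the mean (4.92% against 12.2%). For the differences, 4 members passed for 24 against 0 hr (6.56% against 2.58%), 0 for 48 against 0 hr (against 2.73%) and 3 for 48 against 24 hr (4.92% against 3.59%). The typical standard error was 0.09 on the log2 scale at a time point and 0.05 in the mean. Across all tested probes, ratios of replicates of the same time point correlated at a median r of 0.02 (-0.17 to 0.44). For replicates of different time points the median was 0.13. Ratio profiles particular to a time point thus hardly repeated between its replicates.

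**Figure D1:**
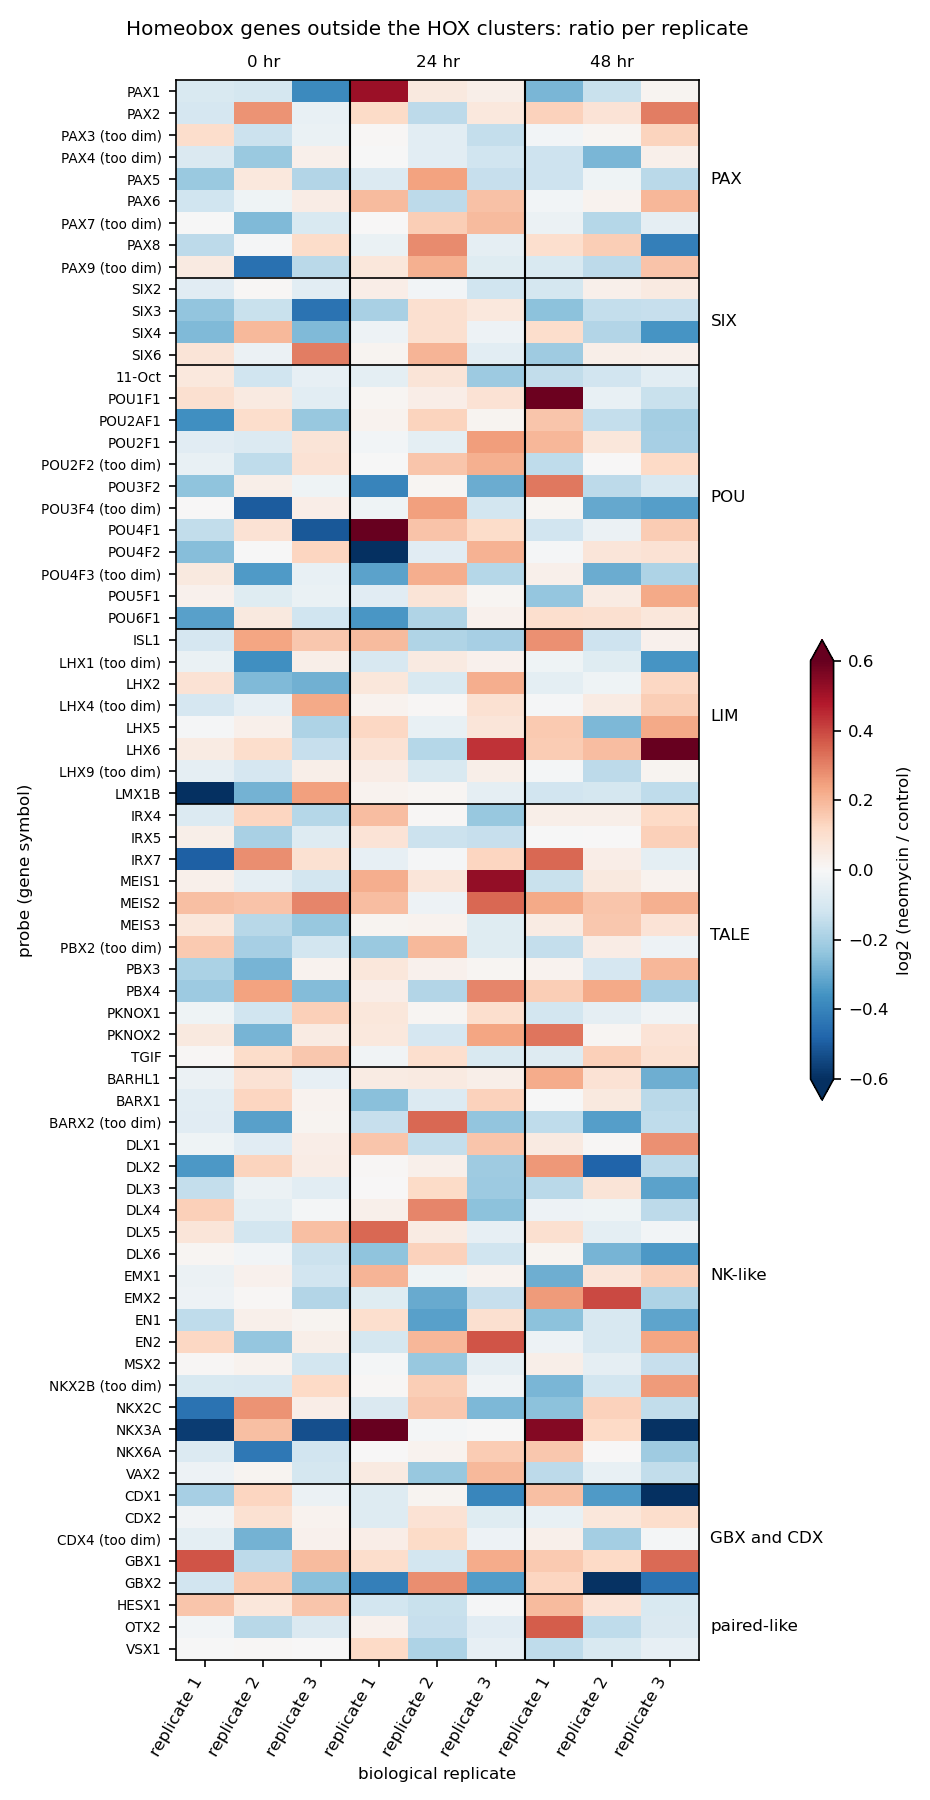
Log2 ratio of neomycin over control for 72 of the 76 members (rows, by class) in the 9 biological replicates (columns, by time point); red is higher and blue lower in neomycin, the colour scale ends at 0.6 in each direction, and the 14 of these too dim to test are marked. No class has 1 colour across a time point, and the MEIS2 row is red in 8 of 9 replicates.

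MEIS2 came closest to a call. This TALE gene encodes a cofactor of PBX and HOX proteins, and its log2 ratio of neomycin over control was 0.18, 0.17 and 0.29 in replicates 1, 2 and 3 at 0 hr. It was 0.18, -0.03 and 0.35 at 24 hr, and finally 0.23, 0.17 and 0.21 at 48 hr. The ratio was thus above 0 in 8 of 9 replicates, the exception being 24 hr replicate 2. Its mean over the time points was 0.19 ± 0.10 (SD, n = 9), or 1.14-fold, with a standard error of 0.05 and an adjusted p of 0.093 in limma. Both dye orientations gave the same sign, 0.15 with neomycin in Cy3 and 0.24 with neomycin in Cy5, and so did both at each time point.

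The scanned images of the 65 arrays were quantified on 15 days. By day, the MEIS2 ratio was above 0 on 14 of 15 days, and on 11 of the 12 days that held both orientations, with a median of 0.12. Fits over the 65 arrays called it, at adjusted p of 0.00738 in limma with the replicate as a random block, 0.00397 with the quantification day, and 0.00482 in the methods' t-test over hybridisations. They called 55, 60 and 42 of 1281 probes. Arrays of the same replicate carry the same RNA, so these fits count technical repeats. With each replicate left out in turn the adjusted p in limma ran from 0.059 to 0.27. No other member was called in any alternative.

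**Figure D2:**
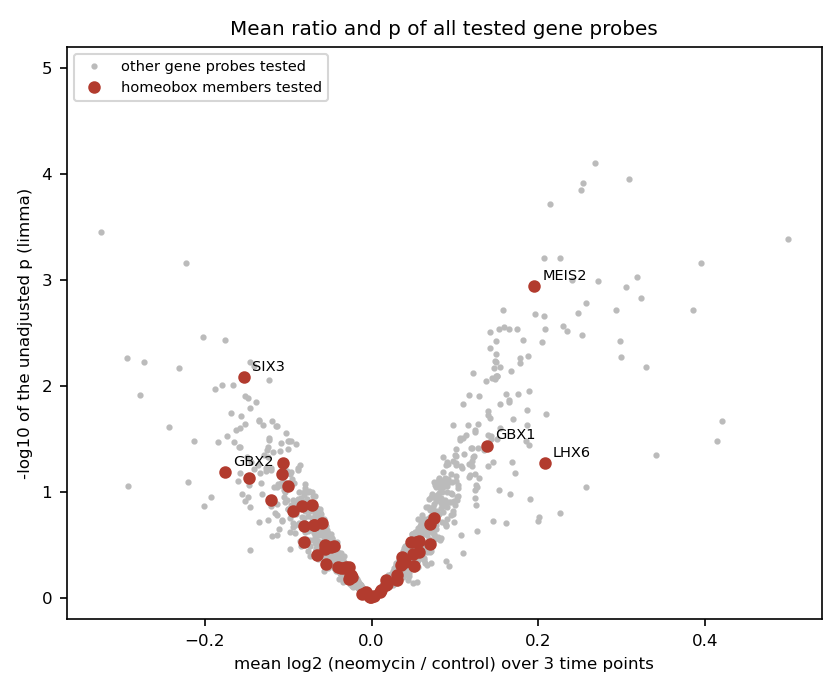
Mean log2 ratio over the 3 time points (x axis) against -log10 of the unadjusted p from limma (y axis) for the 61 members (red) and the other tested gene probes (grey). MEIS2, at 0.19, lies highest among the members, and the 5 called probes are all grey.

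Its relatives did not share the pattern. MEIS1 stood at 0.22, 0.07 and 0.53 at 24 hr, all above 0. It was 0.03, -0.05 and -0.11 at 0 hr, and -0.13, 0.06 and 0.02 after 48 hr. Thus the values at 24 hr lay above all those of the other time points, a separation not counted over all probes. MEIS1 was among the members with the smallest p for 24 against 0 hr, which favours such separation. Its 24 hr ratio averaged 0.27 ± 0.23 (SD, n = 3), or 1.21-fold, and 24 hr exceeded 0 hr by 0.32 ± 0.13 (SE), but the adjusted p were 0.797 and 0.997 in limma. Against 24 hr, 48 hr differed by -0.29 ± 0.13 (SE; adjusted p = 0.999, limma), the smallest p of any member in that comparison. Without 24 hr replicate 3, these 3 values were 0.15, 0.19 and -0.16. MEIS3 averaged -0.11, -0.01 and 0.10 at 0, 24 and 48 hr, and its difference of 48 against 0 hr had an adjusted p of 0.998 in limma. Among their partners and relatives, PBX3, PBX4, PKNOX1, PKNOX2 and TGIF had mean ratios between -0.02 and 0.05. IRX4 and IRX5 averaged 0.00 and -0.03 and IRX7 0.03. Of the 12 tested TALE members 7 were above 0 in the mean, with a median of 0.01.

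Among the PAX genes, the otic genes PAX2 and PAX8 and the related PAX5 gave small ratios. PAX2, at -0.10, 0.27 and -0.05 at 0 hr, 0.12, -0.16 and 0.06 at 24 hr, and finally 0.14, 0.08 and 0.31 at 48 hr, had all 3 replicates above 0 only at the last time point. Its mean of 0.07 was the highest in the class (adjusted p = 0.61, limma). PAX8 averaged -0.02, 0.06 and -0.05 at the 3 time points and PAX5 -0.11, 0.01 and -0.10. PAX5, at -0.07 in the mean, was the lowest of the class.

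PAX1, best known from the developing vertebral column, had the largest difference between time points among the tested PAX genes. Its ratio was -0.09, -0.11 and -0.38 at 0 hr, 0.52, 0.06 and 0.03 at 24 hr, and finally -0.27, -0.14 and 0.02 at 48 hr. All replicates of 0 hr were below those of 24 hr, a separation not counted over all probes. PAX1 was named for its small p in that comparison, which favours such separation. The value of 24 hr replicate 1 stood far above the other replicates. The difference of 24 against 0 hr was 0.40 ± 0.15 (SE; adjusted p = 0.997, limma). It was 0.24 without 24 hr replicate 1, and -0.03 on the arrays with neomycin in Cy3. For 48 against 24 hr the difference was -0.33, and -0.18 without 24 hr replicate 1. PAX6, an eye gene, averaged 0.04 over the time points, and PAX3, PAX4, PAX7 and PAX9, too dim to test, between -0.09 and -0.02.

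SIX3 and its relatives encode proteins that work with EYA and PAX proteins in the otic placode. SIX3, a forebrain and eye gene, was -0.24, -0.14 and -0.44 at 0 hr, -0.19, 0.10 and 0.07 at 24 hr, and finally -0.25, -0.14 and -0.14 at 48 hr. It was thus below 0 in every replicate of 0 and 48 hr, and its mean of -0.15 ± 0.16 (SD, n = 9) was the lowest in this family. The adjusted p in limma was 0.43 at 0 hr and 0.17 in the mean. Both orientations lay below 0 in the mean, at -0.08 and -0.23, but at 48 hr they were 0.08 with neomycin in Cy3 and -0.43 in Cy5. SIX2 and SIX6 averaged -0.03 and 0.04. SIX4, whose probe passed the brightness threshold of 1000 on 46 of 65 arrays, averaged -0.11, 0.01 and -0.14.

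The EYA and DACH partners were read as well. Of 5 on the array, 4 were tested, none was called in either direction, and none had an unadjusted p under 0.05 in limma at a time point or in the mean. Their mean ratios ran from -0.05 (EYA4) to 0.03 (EYA2), and EYA1 was too dim to test.

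In the POU class, POU4F1, a gene of sensory neurons, showed the largest ratio of the class at 1 time point. It was -0.15, 0.08 and -0.51 at 0 hr, 0.75, 0.17 and 0.11 at 24 hr, and finally -0.12, -0.04 and 0.15 at 48 hr. At 24 hr all replicates lay above all those of 0 hr, a separation not counted over all probes. A small p in that comparison, as given below, favours such separation. The 24 hr mean was 0.34 ± 0.35 (SD, n = 3), or 1.27-fold, and was 0.14 without 24 hr replicate 1. For 24 against 0 hr the difference was 0.53 ± 0.18 (SE; 0.33 without 24 hr replicate 1), the smallest p of any member in that comparison, with an adjusted p of 0.997 in limma. Over the time points its ratio was -0.07 with neomycin in Cy3 and 0.17 with neomycin in Cy5. None of the 4 neuron markers on the array (NEUROD1, NEUROG1, POU4F1 and ISL1) was detected, and their summed corrected signal ranged from 2110 to 3198 at 0 hr, from 502.9 to 2318 at 24 hr and from 1162 to 2720 at 48 hr. Their part in the POU4F1 ratio was not tested.

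Quantification days that held more than 1 time point numbered 3. Of these, 1 held arrays of replicate 3 at 0 and 24 hr, and the other 2 held arrays of the same pair, replicate 2 at 24 and 48 hr, so their values repeat 1 comparison of RNA. On the day shared by 0 and 24 hr, POU4F1 was 0.42 higher at 24 hr, PAX1 0.54 and MEIS1 0.65 higher. That day held all arrays of 24 hr replicate 3, which are part of the fits above, so these values add no further RNA. On the days shared by 24 and 48 hr, 48 hr differed from 24 hr by -0.20 and -0.21 for POU4F1, by 0.03 and -0.41 for PAX1 and by 0.08 and -0.11 for MEIS1.

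POU4F2, a close relative used by retinal ganglion cells, averaged -0.04, -0.17 and 0.05. POU4F3, the hair cell gene, was too dim to test, with values of 0.06, -0.34 and -0.05 at 0 hr, -0.32, 0.22 and -0.17 at 24 hr, and finally 0.03, -0.30 and -0.19 at 48 hr, which lie on both sides of 0 at each time point. POU3F4, which in the mammalian ear is a gene of the mesenchyme around the labyrinth, was also too dim. POU3F2 at 24 hr was -0.40, 0.01 and -0.30 (mean -0.23, adjusted p = 0.80 in limma; -0.14 without replicate 1 and -0.35 without replicate 2) and had the lowest mean ratio of the class, -0.09. POU1F1, a pituitary gene, had the highest, 0.07, which rested on 48 hr replicate 1 at 0.59. POU6F1 was 0.10, 0.10 and 0.07 at 48 hr, against -0.33, 0.06 and -0.12 at 0 hr and -0.35, -0.18 and 0.03 at 24 hr, and its difference of 48 against 0 hr was 0.22, or 0.12 without 0 hr replicate 1. POU2F1, POU5F1, POU2AF1 and 11-Oct had mean ratios between -0.07 and 0.02.

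LIM homeodomain proteins carry a pair of LIM domains that bind cofactors. LHX6, a gene of forebrain interneurons, gave the highest member ratio at any time point, at 48 hr. The values there were 0.15, 0.19 and 1.16, against 0.05, 0.11 and -0.14 at 0 hr and 0.09, -0.17 and 0.43 at 24 hr. All 3 were above 0, and replicate 3 alone lay above 1. The 48 hr mean was 0.50 ± 0.57 (SD, n = 3; adjusted p = 0.60, limma) and was 0.17 without that replicate. It was 0.82 with neomycin in Cy3 and 0.18 with neomycin in Cy5. The array of low brightness pattern in 48 hr replicate 3 is one of the Cy5 arrays, and the mean was 0.55 without the arrays of low pattern. The difference of 48 against 0 hr was 0.49, or 0.16 without 48 hr replicate 3, with an adjusted p of 0.998 in limma. The brightness of the LHX6 probe relative to the median probe (log2) was also averaged by replicate number over the time points. It was -0.133, 0.273 and 2.497 for numbers 1, 2 and 3. The probe thus stood well above the median probe only in number 3, to which the ratio of 1.16 belongs. The part of brightness in the LHX6 ratios was not tested.

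ISL1 averaged 0.10, -0.07 and 0.06, with replicates on both sides of 0 at every time point. LMX1B, related to the otic gene LMX1A that is not among the probes used here, was the lowest LIM member in the mean at -0.12. Its 0 hr values spread from -0.65 to 0.24, and at 48 hr all 3 were below 0 (-0.11, -0.10 and -0.15). LHX5 and LHX2 averaged 0.01 and -0.03, and LHX1 and LHX9 were too dim to test.

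**Figure D3:**
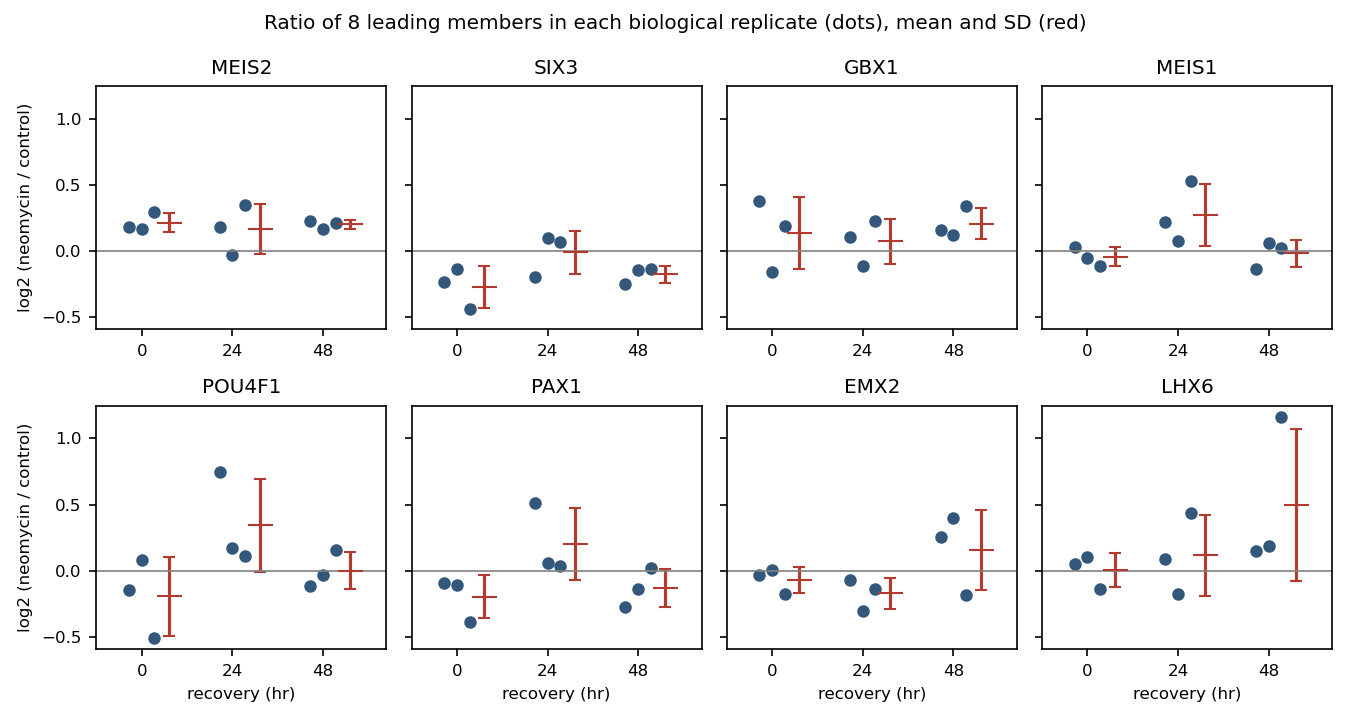
Log2 ratio of neomycin over control (y axis) at 0, 24 and 48 hr of recovery (x axis) for 8 members, with a dot for each biological replicate and the mean ± SD (n = 3) in red. MEIS2 stays near 0.2 at each time point, the POU4F1 and PAX1 means at 24 hr are carried by 1 high dot each, and so is LHX6 at 48 hr (1.16).

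The NK-like group holds 19 members. DLX5 and DLX6, neighbours in the chicken genome that act in the dorsal otocyst, had mean ratios of opposite sign, 0.06 and -0.11. DLX6 was 0.02, -0.28 and -0.34 at 48 hr. The neighbours DLX3 and DLX4 averaged -0.08 and -0.01, DLX2 and DLX1 -0.08 and 0.05, and SIX3 and SIX2 -0.15 and -0.03.

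EMX2, which sets the orientation of hair cells in the mouse utricle, was -0.03, 0.01 and -0.18 at 0 hr, -0.07, -0.30 and -0.14 at 24 hr, and finally 0.26, 0.40 and -0.18 at 48 hr. It was below 0 in all replicates at 24 hr and above 0 in 2 of 3 at 48 hr. The difference of 48 against 24 hr was 0.33 ± 0.14 (SE; adjusted p = 0.999, limma). It was 0.21 without 48 hr replicate 2 and 0.50 without 48 hr replicate 3. On the 2 days shared by 24 and 48 hr, both of replicate 2 alone, EMX2 was 0.77 and 0.62 higher at 48 hr. BARHL1, a hair cell gene, was 0.05, 0.05 and 0.03 at 24 hr and averaged 0.00, 0.04 and 0.00, and MSX2 averaged -0.03, -0.10 and -0.05.

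EN1 was below 0 in all replicates of 48 hr, at -0.25, -0.10 and -0.32 (mean -0.22, adjusted p = 0.62 in limma). NKX6A was -0.08, -0.43 and -0.11 at 0 hr, a mean of -0.21 ± 0.19 (SD, n = 3; adjusted p = 0.74, limma) and -0.10 without replicate 2. NKX3A varied most among the replicates, from -0.59 to 0.75, with an SD of 0.48 over the 9 replicates and a mean of -0.01.

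GBX1 and GBX2 lay at opposite ends of their group. GBX1 was 0.38, -0.16 and 0.19 at 0 hr, 0.11, -0.11 and 0.22 at 24 hr, and finally 0.16, 0.12 and 0.34 at 48 hr. It was above 0 in 7 of 9 replicates, with a mean of 0.14 ± 0.18 (SD, n = 9; adjusted p = 0.35, limma) and 0.15 and 0.13 in the 2 orientations. GBX2, an otocyst patterning gene, was -0.11, 0.16 and -0.25 at 0 hr, -0.41, 0.28 and -0.33 at 24 hr, and finally 0.13, -0.59 and -0.44 at 48 hr. It was below 0 in 6 of 9 replicates, and its mean of -0.18 ± 0.31 (SD, n = 9; adjusted p = 0.44, limma) was the lowest of all tested members. CDX1, an intestinal and posterior gene, averaged -0.15, and CDX2 0.02.

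The paired-like members OTX2, VSX1 and HESX1 had mean ratios between -0.04 and 0.04. OTX2, a gene of the ventral otocyst, was 0.36, -0.15 and -0.09 at 48 hr. All 3 changed sign between the 2 orientations.

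The 27 tested members of the inner ear list gave the following counts. At 0 hr 7 were above 0, at 24 hr 12 and at 48 hr 14, with medians of -0.04, -0.01 and 0.00, and none was called. Over all 61 members, 16 were above 0 at 0 hr (26.2%, median -0.04), against 617 of 1281 probes (48.2%, median -0.01). With the sign turned in both orientations, 45 of 61 members and 664 of 1281 probes were above 0. At 24 hr 33 of 61 were above 0 (54.1% against 52%) and at 48 hr 32 (52.5% against 52.8%). Without the arrays of low pattern the 0 hr count was 20 (32.8%, against 47.9% of all probes). It was 23 without 0 hr replicate 1 (37.7% against 51.6%). With neomycin in Cy5 alone it was 28 (45.9% against 55.9%), and in Cy3 alone 19 (31.1% against 44.5%). Plain background subtraction gave 26 (42.6% against 54%), where the median of all probes was 0.02.

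Homeobox genes with other symbols were read from a separate list of 37, of which 20 were on the array, 19 were tested and none was called. HHEX, at 0.27 at 0 hr and 0.16 in the mean, had the only unadjusted p under 0.05 in limma at 0 hr (adjusted p = 0.12 in the mean). On a list of inner ear fate genes, 12 were on the array and 10 tested, with none called. HMX2, a homeobox gene of the vestibular system, averaged -0.14, -0.19 and -0.11 (mean -0.15, adjusted p = 0.16 in limma), below 0 in both orientations. SOX2 averaged 0.13, 0.21 and -0.13, and ATOH1, the hair cell switch, -0.04, 0.02 and -0.02.

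Of the 61 tested members, 31 had the same sign in both dye orientations (50.8%), against 550 of 1281 probes (42.9%). Across the members the orientation means correlated at r = 0.01, and across all probes at r = -0.20, where probes share arrays and are not independent. The median size of a mean ratio was 0.05 for members and the median size of the orientation part, the mean difference halved, was also 0.05. No member had the same sign in all 9 replicates, against 30 probes (2.34%), and MEIS2 alone had it in 8, against 138 probes with at least 8 (10.8%). All 3 replicates of a time point had the same sign in 8, 13 and 18 of 61 members at 0, 24 and 48 hr. Over all probes it was 355, 375 and 365 of 1281, so 1 sign in all 3 replicates is common.

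**Figure D4:**
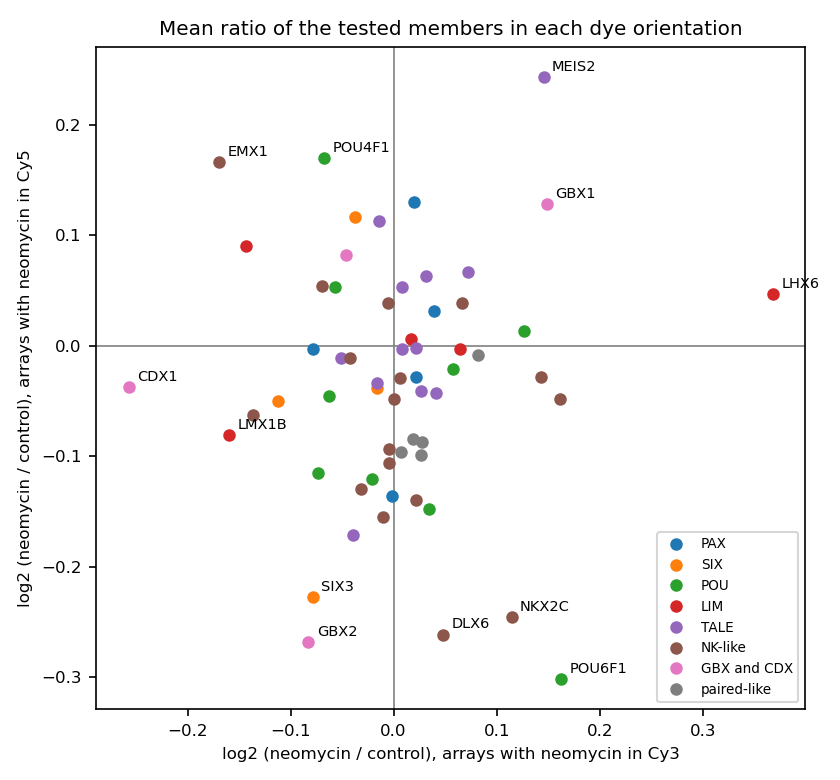
Mean log2 ratio of each of the 61 tested members on arrays with neomycin in Cy3 (x axis) and in Cy5 (y axis), coloured by class. MEIS2 and GBX1 sit in the upper right and SIX3 and GBX2 in the lower left, while POU6F1, NKX2C, DLX6 and EMX1 change sign between the orientations.

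Brightness was followed through the time course too, as the mean of both dyes relative to the median probe of the array (log2). It does not compare one gene with another, because probes designed on human genes bind chick RNA unequally. A probe was scored as detected where the corrected signal exceeded 1000 on 50% or more of the arrays in each replicate. At 0 hr 4 members were detected (SIX4, GBX2, IRX7 and NKX2C; 5.26%, against 8.03% of all probes), at 24 hr 0 (against 3.12%) and at 48 hr 3 (GBX2, IRX7 and NKX2C; 3.95% against 5.04%). Without 24 hr replicate 1 the 24 hr count was 4 of 76 members and 150 of 1507 probes.

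No member's relative brightness was called between time points in limma, and 0% of all probes were called in each of the 3 comparisons. At an unadjusted p under 0.05 it was 0 of 61 members in each, against 0.546%, 2.03% and 0.937% of all probes for 24 against 0, 48 against 0 and 48 against 24 hr. The members with the smallest p were DLX2 (1.38 brighter at 24 than at 0 hr), POU2AF1 (0.48) and DLX6 (0.34) in the first comparison. In the second they were IRX5 (0.86), ISL1 (-0.71) and VAX2 (-0.63), and in the third PAX8 (-0.75), PBX4 (-0.82) and VAX2 (-0.64). The adjusted p of all 9 was at least 0.98. Leaving out 1 replicate moved 8 of these 9 differences by over 1.5 times, DLX6 being the exception. Without 48 hr replicate 1, IRX5 was 0.30, ISL1 -0.33, VAX2 -0.29 and -0.30 and PAX8 -0.39. DLX2 was 0.82 without 24 hr replicate 1 and 2.30 without 24 hr replicate 3. POU2AF1 was 0.29 without 0 hr replicate 2, 0.75 without 0 hr replicate 3 and 0.26 without 24 hr replicate 3. PBX4 was -0.52, -1.23 and -0.34 without 24 hr replicates 1 and 2 and 48 hr replicate 3, and ISL1 -1.18 without 48 hr replicate 2.

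Brightness varied more with the replicate number than with the time point for most members. Deviations of same-numbered replicates from their time point means correlated at r = 0.28 to 0.75 across genes (9 pairs), those of different numbers at -0.53 to 0.01 (18 pairs), and each of the 9 replicates correlated best with its own number. The deviations within a time point cancel in sum, so the negative values for different numbers follow in part from the positive ones. The range over numbers exceeded the range over time points in 51 of 61 members (83.6%), against 78.2% of all probes. The methods describe repeats of the time course with further biological samples, and whether a number marks 1 such repeat is not stated. Replicates 3 of 0 and 24 hr, and replicates 2 of 24 and 48 hr, also shared quantification days. In a limma fit over the 65 arrays with the day as a random block, brightness correlated at 0.49 within a day. That fit called no member, but 36 of 61 members were brighter at 48 than at 24 hr (59%, against 57.2% of all probes). In the main fit it was 25 members (41%, against 43.9% of all probes). Of the 15 days, 4 held more than 1 replicate, and the parts of day and replicate number were not separated.

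POU4F2 varied most with the replicate number. Its relative brightness was 3.23, 3.48 and -0.51 in replicates 1, 2 and 3 at 0 hr, 3.77, 5.12 and -0.34 at 24 hr, and finally 3.26, 5.55 and -0.80 at 48 hr. On average the probe thus stood far above the median probe in replicates 1 and 2 of each time point and below it in each replicate 3. Averages by number were 3.42, 4.72 and -0.55, whereas averages by time point differed by at most 0.78.

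DLX3 (3.03, 2.38 and 0.11 by number), DLX2 (1.72, 1.76 and -0.42) and EMX2 (1.80, 2.06 and 0.07) were also dim in replicate 3. GBX2 ran another way, at 2.13 in number 1 against 4.40 and 4.63. SIX4, IRX7 and NKX2C differed less, with averages above 1 in all 9 replicates. These averages cover days that differed widely. NKX2C in replicate 2 was -0.90 and 3.24 on the 2 days of 24 hr and -0.49 and 3.57 on those of 48 hr. GBX2 in 24 hr replicate 1 was 0.16, 5.24 and 0.11 on its 3 days, and POU4F2 there was 5.22, 0.14 and 4.75. In 0 hr replicate 3, IRX7 was -0.04, 3.68 and 3.36 and SIX4 -0.02, 3.34 and 2.66.

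With the replicate number as a block in limma, still no member and no probe was called. At an unadjusted p under 0.05 there were 1 member for 24 against 0 hr (DLX2; 1.64%, against 2.11% of all probes), 3 for 48 against 0 hr (DLX3, ISL1 and VAX2; 4.92% against 6.01%) and 2 for 48 against 24 hr (EMX2 and VAX2; 3.28% against 3.28%). VAX2, an eye patterning gene, differed at 48 hr by -0.63 from 0 hr and by -0.64 from 24 hr. The smallest adjusted p of any member in these 2 comparisons was 0.627 and 0.806.

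**Figure D5:**
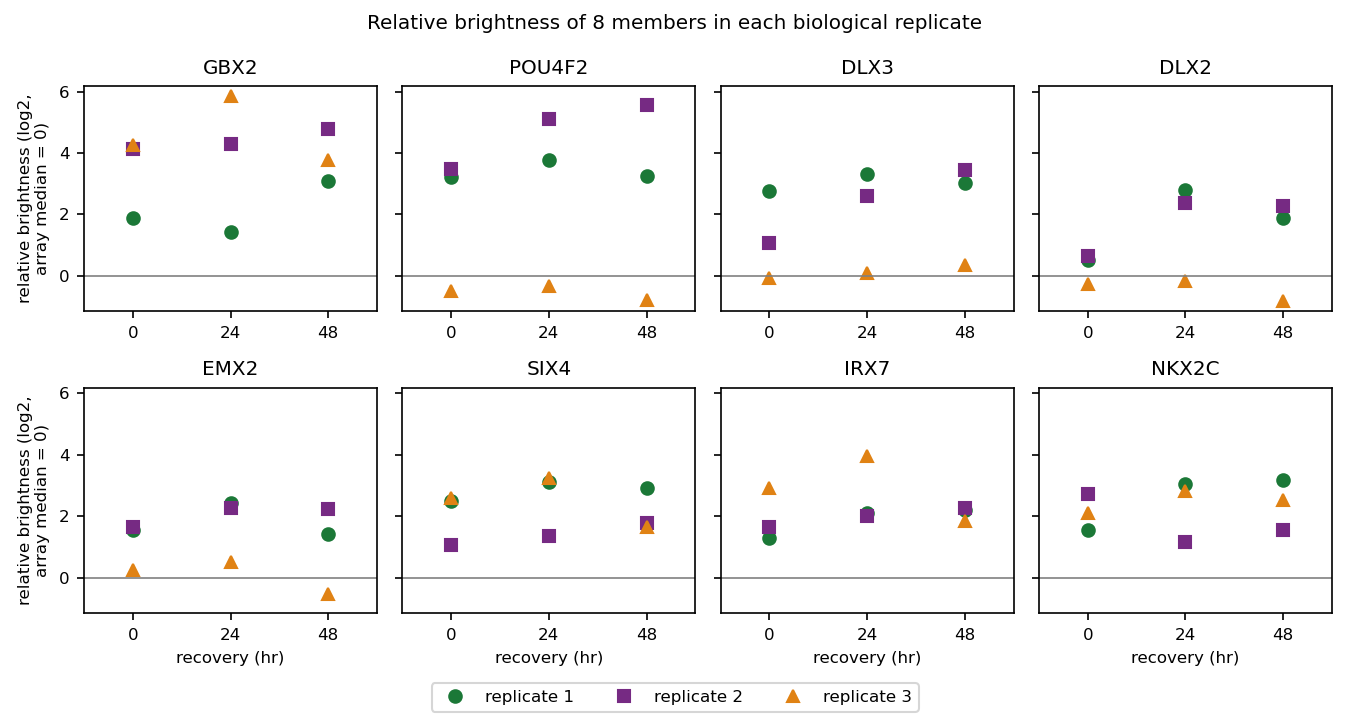
Relative brightness (log2, 0 is the median gene probe of the array, y axis) of 8 members at 0, 24 and 48 hr (x axis), 1 symbol per biological replicate by its number. The replicate 3 symbols of POU4F2, DLX3, DLX2 and EMX2 lie below those of replicates 1 and 2 at each time point, and the replicate 1 symbols of GBX2 lie lowest.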

How the data were processed

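Each of the 65 two-colour arrays gave 2 image quantification files, written by ImaGene 4.1 per the file headers. The deposited values are spot and local background intensities, not normalized. The authors also deposited log2 ratios, which equal the log2 ratio of the foreground intensities (largest difference 5.33e-15) without centring, since array medians ran from -2.03 to 1.81. The authors normalized by locally weighted regression, which neither table holds.

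Intensities were background corrected (normexp, offset 50) and normalized by loess within each array in limma 3.58.1 (R 4.3.3), with the 27 names that are not genes at weight 0 and 8 marked spots left out. Duplicate spots, then arrays within a dye orientation (2 to 6), then both orientations were averaged. The dimmest 15% of gene probes were removed by foreground brightness (median 634.8; 83% were under 1000), leaving 1281. The 9 replicates were fitted with 1 coefficient per time point, tested two-sided against 0 and against each other, with Benjamini-Hochberg adjustment over all 1281 probes. Detection used a fixed signal of 1000. Steps were run on simulated data with planted changes larger than any member's mean ratio at a time point, and with noise below that measured. That run does not show whether changes of the size seen here would be called.

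Named members were all inner ear list members on the array (33 of 39), the 3 smallest p in each comparison, members past 1.2-fold with an unadjusted p under 0.05, and the extremes of each class. Other members are given by value or range, and 4 members are not reported here by name, though counts include them. Members and lists were chosen with earlier results of these data known.

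The replicate numbers paired brightness (every same-numbered pair over 0.1) but not ratios (2 of 9 pairs). The number of arrays and replicates limits the precision. The methods name further biological samples but not separate culture sessions, so p-values measure the spread between these samples. No sequence is shown, since none was used here.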

Additional observations from a re-analysis of the deposited data

Results flagged for a closer look

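In 4 of 61 members every replicate of one time point lay on one side of 0 and every replicate of another on the other side, as in 63 of 1281 probes (6.56% against 4.92%). PAX1 was 0.40 higher at 24 than at 0 hr, NKX6A 0.27 higher, while HESX1, a pituitary and forebrain gene, differed by -0.22. For PKNOX1, a TALE cofactor, 48 hr differed from 24 hr by -0.12. The differences were not recomputed under the alternatives except for PAX1. They were tested in limma, and none was called, with adjusted p of 0.997 for the first 3 and 0.999 for PKNOX1.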

How the results depend on the processing

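The count of called members stayed at 0 in every ratio and brightness comparison and alternative, except for 1 member (MEIS2, mean ratio) in the one-sample t-test over hybridisations and in both fits over 65 arrays. Detection moved with its limit. Over 800 it gave 8 members at 0 hr (10.5%, against 10.9% of all probes) and 2 at 24 hr (2.63% against 4.11%). Leaving out single replicates gave 4 to 7 members detected at 0 hr (7 without 0 hr replicate 3). At 24 hr it gave 1 to 4 (4 without 24 hr replicate 1). At 48 hr it gave 3 to 8 (8 without 48 hr replicate 3 and 5 without 48 hr replicate 2). Among all 1507 probes it gave 137 to 152 at 0 hr, 48 to 150 at 24 hr and 94 to 134 at 48 hr. Among the members with the 3 smallest p in each comparison, values kept their direction in all alternatives run, with 4 exceptions. On arrays with neomycin in Cy3 alone PAX1 gave -0.0298 (24 against 0 hr) and 0.178 (48 against 24 hr). Neomycin in Cy5 alone gave -0.0197 for MEIS3 (48 against 0 hr), and plain subtraction gave 0.132 for MEIS1 (48 against 24 hr). The cause was not tested. Members with an unadjusted p under 0.05 ranged over alternatives from 0 to 6 at 0 hr, 1 to 6 at 24 hr, 1 to 7 at 48 hr and 0 to 10 in the mean. Over all probes these ranges were 29 to 137, 22 to 108, 29 to 132 and 55 to 203. Each lowest count over all probes came with a brightness of 800 or more, where 19 members and 387 probes were tested. The count above 0 at 0 hr ranged from 2 (of 19, brightness of 800 or more) to 28. These shares were 10.5% and 45.9%, against 45.7% and 55.9% of all probes. Members of one sign in both orientations ranged from 25 to 39. For ratios, the replicate block left 3, 2, 3 and 5 of 61 members at an unadjusted p under 0.05 at 0, 24 and 48 hr and in the mean. Over all probes it left 80, 81, 102 and 165 of 1281. With the block 0 members were called, and 16 probes were called in the mean against 5 without the block. That count was 25 without 0 hr replicate 2, 42 to 60 in fits over arrays and 0 without any 1 of the other 8 replicates. It was 1 in the t-test on replicates, 2 with neomycin in Cy5 alone, and 0 with neomycin in Cy3 alone, without background correction, with plain subtraction, median centring, scale normalization, the deposited ratios or a brightness of 800 or more. In their ratios, 4 of 9 replicates correlated best with their own number. Of the gene probes, 83% had a foreground brightness under 1000, and among the 19 members at 800 or more 0 were called.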
